A study of Mus musculus with 3 samples.

Results

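The 8 genes Pde1b, Pde2a, Pde3b, Pde4a, Pde4b, Pde4d, Pde7a and Pde8a encode phosphodiesterases, the enzymes that break down the second messengers cyclic AMP and cyclic GMP. They were followed in WR19L, a T-lymphoma line from BALB/c mice. Their members on the array were every probe set whose only gene symbol was one of these names, which gave 23 probe sets for the 8 genes, out of 18194 genes with such a probe set. The genes were chosen by their signals and signal ratios on these same arrays, so all values below are descriptions, and their selection supports nothing. Gene expression was measured on 3 Affymetrix arrays, 1 per group, in untreated cells. The first array held cells of the DKO line, WR19L made deficient in flippase, with stable expression of the Q84E mutant of ATP11A. The second held the same DKO line with stable expression of wild-type human ATP11A, a flippase that carries phospholipids from the outer to the cytosolic side of the cell's membrane. The third held parental WR19L cells. DKO cells without a transgene were not analysed here, so against parental cells the knockout, the transgene and the derivation of the line cannot be told apart. The labels do not say how many clones each line came from, and with 1 array per group there is no replicate, no test and no p-value. In bulk RNA, fewer cells with a transcript and less of it per cell cannot be told apart either.

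Cyclic AMP is made by adenylyl cyclases downstream of G protein-coupled receptors and acts through protein kinase A, the exchange factors of the Epac family and CREB-type transcription factors. In T cells a rise of cyclic AMP dampens signalling from the T cell receptor, and phosphodiesterases end that brake. The families differ in control: Pde1 enzymes are switched on by calcium and calmodulin, Pde2a is stimulated by cyclic GMP, Pde3b is inhibited by it, and Pde4, Pde7 and Pde8 enzymes are specific for cyclic AMP.

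The promoter stretches below are shown because Pde2a was lower in both DKO lines than in parental cells, while Pde4b was higher with Q84E than with wild-type ATP11A, and because some phosphodiesterase promoters are known, in human and rat cells, to respond to CREB. They come from RefSeq, assembly GRCm38.p6, plus strand, and run from 250 bases before to 50 after an annotated start. Of the 8 genes, 6 had such windows, 17 in all, with 5 for Pde2a and 4 for Pde4b. Pde3b and Pde7a had no entry. The first Pde2a window, chr7:101450270-101450569, holds the CREB element core TGACG, read on the other strand as CGTCA, at position 265 counted from 1 at its 5′ end. The second, chr7:101451002-101451301, holds 5 matches to the GC box GGGCGG, in part overlapping. The Pde4b window, chr4:102421305-102421604, holds the CREB element core at position 217, again on the other strand. Capitals mark the CREB element core in the lines named for it and the GC boxes in the other.
Pde2a, CREB element core: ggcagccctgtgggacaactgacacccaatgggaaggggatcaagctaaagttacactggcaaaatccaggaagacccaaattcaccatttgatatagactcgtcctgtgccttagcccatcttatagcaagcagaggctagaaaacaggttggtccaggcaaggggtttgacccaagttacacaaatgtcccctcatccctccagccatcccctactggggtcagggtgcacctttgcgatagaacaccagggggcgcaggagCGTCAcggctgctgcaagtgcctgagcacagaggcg
Pde2a, GC boxes: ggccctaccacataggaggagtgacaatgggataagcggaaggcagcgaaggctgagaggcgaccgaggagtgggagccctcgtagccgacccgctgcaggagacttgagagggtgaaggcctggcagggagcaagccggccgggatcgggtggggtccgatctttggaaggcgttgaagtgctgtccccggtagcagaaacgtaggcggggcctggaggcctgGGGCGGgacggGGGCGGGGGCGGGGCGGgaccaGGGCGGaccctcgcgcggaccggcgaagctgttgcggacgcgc
Pde4b, CREB element core: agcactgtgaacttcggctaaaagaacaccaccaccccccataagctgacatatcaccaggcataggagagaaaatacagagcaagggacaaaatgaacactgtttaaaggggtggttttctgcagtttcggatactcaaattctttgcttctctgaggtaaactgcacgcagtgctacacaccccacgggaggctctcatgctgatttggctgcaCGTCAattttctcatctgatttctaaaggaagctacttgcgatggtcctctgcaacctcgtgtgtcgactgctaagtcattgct
The full CREB element TGACGTCA was in 0 of the 17 windows, against 1.79% of all 32851 windows in the table and 2.98% of the windows of compared genes. Its core TGACG, searched on both strands, was in 4 of the 17 windows, 1 each of Pde2a, Pde4a, Pde4b and Pde8a, against 20.8% of all windows and 30.8% of those of compared genes. The GC box, also searched on both strands, was in 5 of the 17, against 35.7% of all windows and 60.8% of those of compared genes. A match of letters is no evidence of a site in use, and the arrays do not show which start a transcript came from.

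The median signal was 55.5 for Q84E, 50.5 for wild-type ATP11A and 50.3 for parental cells, so that of the Q84E array was the highest. That median was used as a floor on each array, and a lower signal was set to it before ratios were taken, so such a ratio is a bound. Of the 23 member probe sets, 19 reached the floor on at least 1 array and were compared, 16 of them on all 3 arrays, and all 8 genes had at least 1. The 4 left out were 2 dim probe sets of Pde4b and 1 each of Pde4d and Pde8a. The error of a log2 ratio was taken from pairs of probe sets of the same gene, as a robust SD for 1 probe set. It was 0.30 to 0.33 for signals between the 50th and 75th percentile and 0.16 to 0.17 between the 75th and 90th, and it does not cover differences between cultures. Of 11 T cell marker genes with a probe set, 9 were above the floor on all arrays, among them Cd3d, at signals of 6976 in Q84E, 4272 in wild-type ATP11A and 6898 in parental cells. Cd3e and Cd5 were under the floor on all 3. The T cell markers' summed signal was 36436 in Q84E, 32377 in wild-type ATP11A and 38122 in parental cells. No marker of B, myeloid, erythroid or fibroblast cells, of 6, 7, 4 and 6 measured, came up to the 75th percentile of signal on any array. The highest of these was the B cell kinase gene Blk, at 343, 307 and 294 in Q84E, wild-type ATP11A and parental cells.

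**Figure D1:**
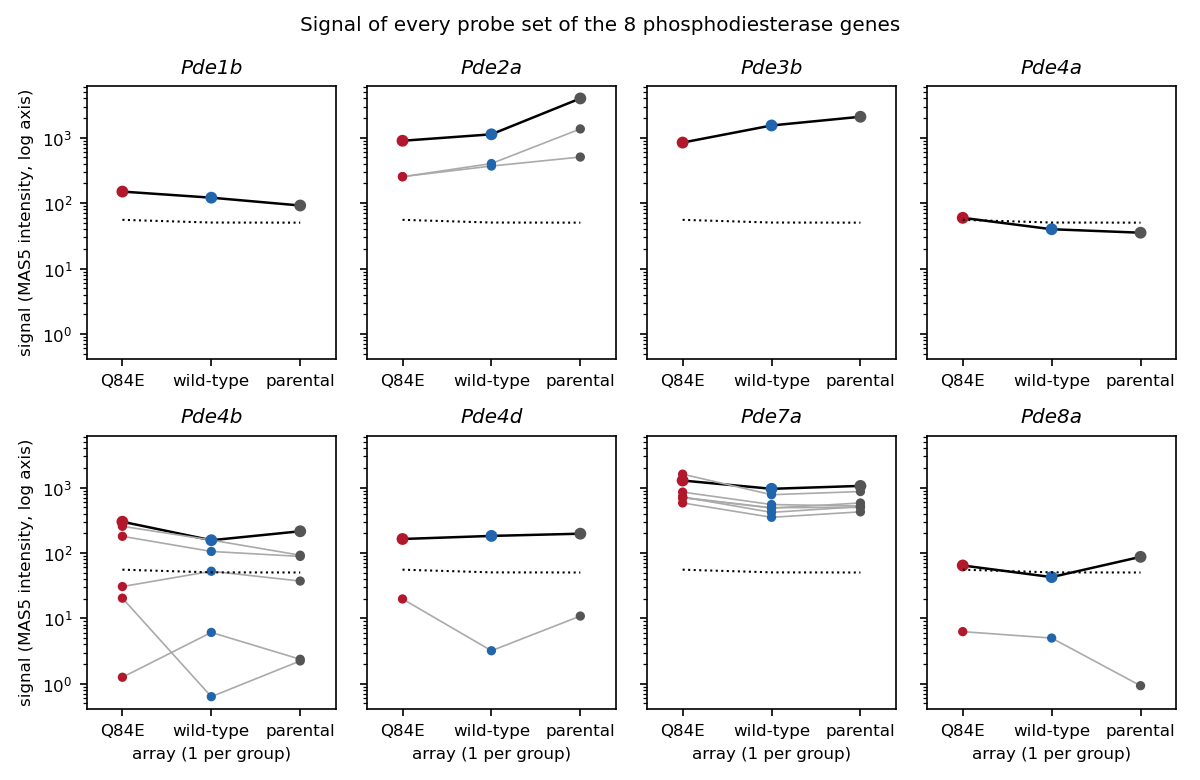
Signal of each probe set of the 8 genes on the 3 arrays, on a log axis, with 1 line per probe set, the black line for the brightest and the dotted line for the floor of each array. Pde2a and Pde3b are highest in parental cells and lowest in Q84E cells, and all 7 Pde7a probe sets are highest in Q84E cells.

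Pde2a, the phosphodiesterase that cyclic GMP stimulates, was far lower in both DKO lines than in parental cells. Its brightest probe set, of a kind marked as less specific, had a signal of 900 in Q84E cells, 1129 in wild-type ATP11A cells and 3998 in parental cells. A second probe set, the only 1 of Pde2a without such a mark, had 254 in Q84E, 403 in wild-type ATP11A and 1365 in parental cells. All 3 probe sets ran in the same order, with parental cells highest and Q84E cells lowest. The remaining probe set, of the kind marked as likely to cross-hybridise, had 254, 369 and 507 in Q84E, wild-type ATP11A and parental cells. For wild-type ATP11A over parental, the log2 ratios were -1.82 by the brightest probe set, -1.76 by the next and -0.46 by the least specific, so the first 2 were 3.54-fold and 3.39-fold lower. The same 3 probe sets had -2.15, -2.43 and -0.996 for Q84E over parental, the first 4.44-fold and the next 5.39-fold lower. Only 14 of 11596 compared genes had a lower ratio of Q84E over parental than the brightest Pde2a probe set, and 16 had a lower one of wild-type ATP11A over parental. Between the DKO lines Pde2a differed less, with log2 ratios of Q84E over wild-type ATP11A of -0.33, -0.67 and -0.54, at errors of 0.17, 0.17 and 0.30.

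Pde3b encodes the phosphodiesterase that cyclic GMP inhibits, known in fat cells and liver as a mediator of insulin action. Its single probe set had a signal of 844 in Q84E cells, 1542 in wild-type ATP11A cells and 2096 in parental cells. The order was the same as for Pde2a, but here the larger step lay between the DKO lines. The log2 ratio of Q84E over wild-type ATP11A was -0.87, or 1.83-fold lower, and 64 of 11596 genes had a lower one. For Q84E over parental it was -1.31, or 2.48-fold lower, and for wild-type ATP11A over parental -0.44, each at an error of 0.16. No other probe set of Pde3b was on the array to set beside these values.

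Pde7a, a high-affinity phosphodiesterase of cyclic AMP known from human T cells, was measured by 7 probe sets, the most of any member. Its brightest had a signal of 1283 in Q84E, 958 in wild-type ATP11A and 1062 in parental cells. The probe set furthest apart had 1605 in Q84E, 779 in wild-type ATP11A and 870 in parental cells. On every probe set the Q84E array was the highest of the 3. The log2 ratio of Q84E over wild-type ATP11A was 0.42 to 1.04, with a mean of 0.66 ± 0.21 (SD over 7 probe sets, which are not replicates of the cells), and 1 of the 7 was past 2-fold. Over parental cells, the Q84E log2 ratio was 0.27 to 0.88, with a mean of 0.51 ± 0.22 over the same probe sets. For wild-type ATP11A over parental it was -0.29 to 0.08, with every probe set under 2 errors. The 7 probe sets came from 5 sequence records, with 3 from the same record, and so are not independent of each other.

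**Figure D2:**
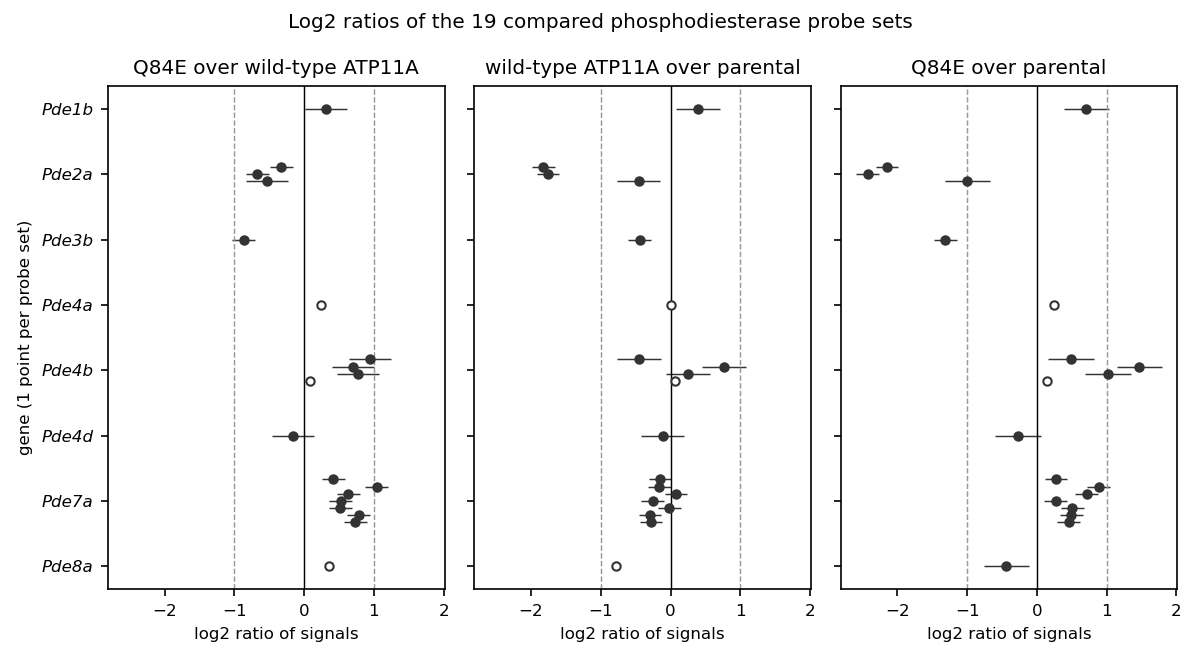
Log2 ratio of each of the 19 compared probe sets in the 3 comparisons, by gene, with 1 point per probe set and bars of 1 robust SD of the probe set error. Open points, drawn without bars, had a level under the floor on at least 1 of the 2 arrays compared, and dashed lines mark 2-fold. Pde7a lies to the right in both comparisons with Q84E on top, while Pde2a lies to the left in all 3.

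Pde4b is the phosphodiesterase of cyclic AMP that is known in human T cells to be recruited on activation. Its brightest probe set had a signal of 301 in Q84E, 157 in wild-type ATP11A and 215 in parental cells. Others had 256, 158 and 92.5, and 180, 106 and 88.6, in Q84E, wild-type ATP11A and parental cells. These 3 probe sets were each highest on the Q84E array, but they disagreed on the order of wild-type ATP11A and parental cells. Their log2 ratios of Q84E over wild-type ATP11A were 0.94, 0.70 and 0.77, at an error of 0.30. The mean was 0.80 ± 0.12 (SD over 3 probe sets, which are not replicates of the cells). For Q84E over parental the log2 ratios were 0.48, 1.47 and 1.02, at an error of 0.33. For wild-type ATP11A over parental they ran on both sides of 0, at -0.46, 0.77 and 0.25. A dimmer probe set reached the floor only on the wild-type ATP11A array, at 52.6, with 30.7 in Q84E and 37.2 in parental cells. It gave no usable ratio between the DKO lines and is not in the mean. Of the 6 Pde4b probe sets, 5 had a listed sequence record, from 4 records with 2 from the same one. They need not be independent of each other.

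Pde4a and Pde4d, the other Pde4 genes among those followed, which share with Pde4b the sensitivity to the inhibitor rolipram, were dim. Pde4d had a signal of 164 in Q84E, 182 in wild-type ATP11A and 197 in parental cells by its brighter probe set. Its log2 ratios, -0.16 for Q84E over wild-type ATP11A, -0.11 for wild-type ATP11A over parental and -0.27 for Q84E over parental, were all smaller than the error of 0.30 to 0.33. Pde4a had 59.6 in Q84E, 39.9 in wild-type ATP11A and 35.3 in parental cells and was above the floor in Q84E cells alone. That gives bounds of at least 1.18-fold higher in Q84E than in either other line, which is within the error.

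Pde1b, the enzyme that calcium and calmodulin activate, had a signal of 150 in Q84E, 121 in wild-type ATP11A and 92.1 in parental cells by its single probe set. The order was the reverse of that of Pde2a and Pde3b. The log2 ratio was 0.71 for Q84E over parental, at an error of 0.33, while 0.31 for Q84E over wild-type ATP11A and 0.40 for wild-type ATP11A over parental were each under 2 errors. Pde8a, an enzyme with very high affinity for cyclic AMP, had 64.4 in Q84E, 42.8 in wild-type ATP11A and 87.3 in parental cells. Its level in wild-type ATP11A cells was under the floor, so it was at least 1.73-fold lower there than in parental cells. For the same reason Q84E over wild-type ATP11A is a bound, at least 1.27-fold higher. The log2 ratio of Q84E over parental was -0.44, at an error of 0.33.

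Counted at 2-fold for Q84E over wild-type ATP11A, 1 of 19 member probe sets was higher, that of Pde7a, where 1.12% of all 21345 compared probe sets were, and 0 were lower, where 0.309% were. With all arrays scaled to a common median the split turned to 0 higher and 1 lower, that of Pde3b at -1.01, since this scaling shifts the median log2 ratio of all genes by -0.14. For wild-type ATP11A over parental, 0 of 19 were higher, against 0.609% of all, and 2 were lower, both of Pde2a, against 0.914%. For Q84E over parental, 2 were higher, both of Pde4b, against 1.67%, and 3 were lower, 2 of Pde2a and that of Pde3b, against 0.796%. With the common median or with quantile normalization that split was 1 higher and 4 lower. At 1.5-fold for Q84E over wild-type ATP11A, 7 were higher, 4 of Pde7a and 3 of Pde4b, against 6.31% of all, and 2 were lower, of Pde2a and Pde3b, against 2.22%. For wild-type ATP11A over parental, 1 was higher at 1.5-fold, of Pde4b, against 3.8% of all, and 3 were lower, 2 of Pde2a and that of Pde8a by a bound, against 3.93%. For Q84E over parental, 5 were higher, 2 each of Pde4b and Pde7a and that of Pde1b, against 7.95%, and 4 were lower, 3 of Pde2a and that of Pde3b, against 3.49%. The median log2 ratio of the 8 genes, by their brightest probe sets, was 0.27 for Q84E over wild-type ATP11A, -0.30 for wild-type ATP11A over parental and -0.01 for Q84E over parental, against 0.05, 0.01 and 0.07 over all 11596 genes. The genes were picked with these values known and the comparisons share arrays, so nothing about the family is read from these counts.

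**Figure D3:**
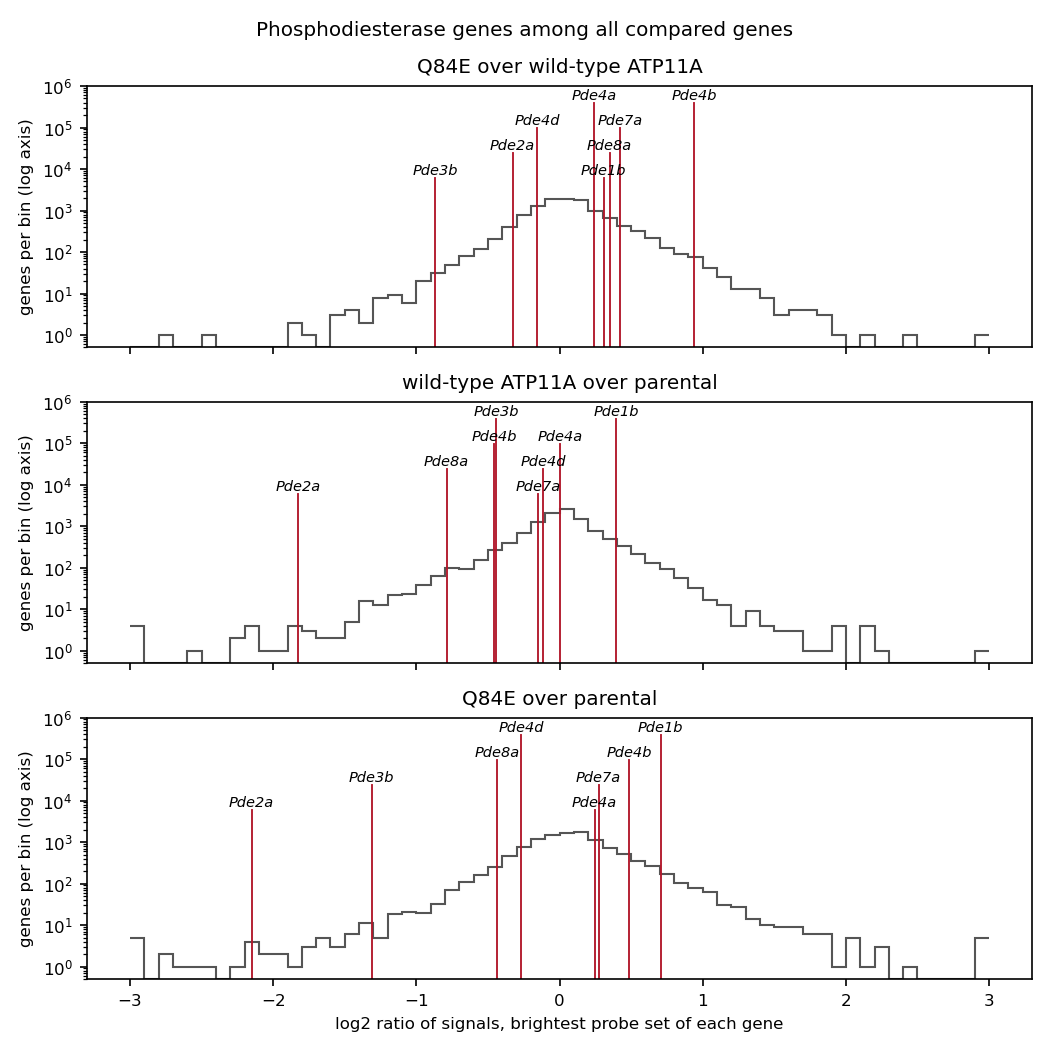
Distribution of the log2 ratios of all 11596 compared genes in bins of 0.1 on a log axis, with ratios beyond 3 in either direction in the outermost bins, and the 8 phosphodiesterase genes as vertical lines whose heights carry no meaning. Pde2a lies in the far left tail of both comparisons with parental cells, and Pde3b and Pde4b lie furthest out for Q84E over wild-type ATP11A.

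Position and pattern were set beside these values. The 3 nearest compared genes on either side of Pde2a, in RefSeq order, were Fchsd2, Stard10, Arap1, Clpb, Inppl1 and Folr1. Their log2 ratios were -0.59 to 0.36 for wild-type ATP11A over parental, the lowest that of Stard10, and -0.22 to 0.24 for Q84E over parental. In each, 0 of 6 were past 2-fold. Over all genes, 0.561% were higher and 0.888% lower in the first comparison, and 1.63% and 0.793% in the second. Around Pde3b, 1 of 6 neighbours was past 2-fold for Q84E over wild-type ATP11A, where 1.03% of all genes were higher and 0.319% lower. That was Insc, the next compared gene after Pde3b, at signals of 25.8 in Q84E, 147 in wild-type ATP11A and 110 in parental cells. Its Q84E signal was under the floor, so -1.41 for Q84E over wild-type ATP11A and -0.98 for Q84E over parental are bounds. For wild-type ATP11A over parental its log2 ratio was 0.43, of the other sign than that of Pde3b. Whether position played a part was not tested. Likeness of pattern was measured as the distance between the pairs of log2 ratios over parental, wild-type ATP11A and Q84E, among 3896 bright genes whose probe sets ran the same way. With only 3 arrays, and with parental cells in both ratios, many genes can lie close. Nearest to Pde2a were Rtl8c, Tuba8 and 2900026A02Rik, at distances of 0.24, 0.50 and 0.57, and nearest to Pde3b were Stra6, Rbm26 and Slc5a1, at 0.26, 0.28 and 0.29.

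Most other phosphodiesterase genes lay under the floor. Of 15 with a probe set, 4 could be compared, Pde6d, Pde6g, Pde6h and Pde9a, and 0 were past 2-fold in any of the 3 comparisons. Pde6d, a prenyl-binding protein that is not itself an enzyme, was the only bright gene among them, at 765 in Q84E, 719 in wild-type ATP11A and 729 in parental cells.

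Among the genes that make cyclic nucleotides, 1 of 9 compared cyclase genes was past 2-fold for Q84E over wild-type ATP11A, Adcy1. Over all 11596 genes, 1.03% were at least 2-fold higher and 0.319% lower in that comparison. The same shares were 0.561% and 0.888% for wild-type ATP11A over parental and 1.63% and 0.793% for Q84E over parental. Adcy1, a calmodulin-stimulated adenylyl cyclase, had 177 in Q84E, 86.3 in wild-type ATP11A and 27.2 in parental cells, the last under the floor, so it was at least 3.53-fold higher in Q84E than in parental cells. Its other probe set had 72.8, 52.5 and 70.6 and did not share the low parental level. Adcy6, an adenylyl cyclase that calcium inhibits, had 1571 in Q84E, 1008 in wild-type ATP11A and 1896 in parental cells. Adcy7 had 633, 835 and 821, so its log2 ratio of Q84E over wild-type ATP11A was -0.40 and that of Adcy6 0.64. The receptor and G protein list had 4 compared genes and 0 past 2-fold, with Gnas, the stimulatory G protein alpha subunit, at 0.24 and Gnai2, an inhibitory one, at 0.14 in the same ratio, though a dim Gnas probe set had -0.36 as a bound.

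Among the genes that carry the signal on, 1 of 7 compared protein kinase A genes was past 2-fold, lower in both comparisons with parental cells. That was Prkar1b, a regulatory subunit, at 102 in Q84E, 68.4 in wild-type ATP11A and 219 in parental cells. Its other probe sets had log2 ratios of wild-type ATP11A over parental of -0.20 and 0.51, against -1.68, so they did not share that low level. The catalytic subunit genes Prkaca and Prkacb had log2 ratios of Q84E over wild-type ATP11A of -0.37 and 0.23, though the other Prkaca probe set had 0.29. None of the 12 compared A-kinase anchoring genes, the 6 other effectors or the 7 CREB family genes was past 2-fold in any comparison. Among members at or above the 75th percentile on the Q84E or the wild-type ATP11A array, the largest ratios of Q84E over wild-type ATP11A in each list were 0.29 for Akap11, 0.19 for Akap13, -0.15 for Rapgef2, 0.15 for the Epac gene Rapgef3, 0.48 for the coactivator gene Ep300 and -0.08 for Creb1. Other probe sets disagreed in sign for Rapgef3, where a bright one had -0.50, and for Creb1, where the next brightest had 0.21.

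Of 11 compared genes known to be induced through cyclic AMP and CREB, 1 was past 2-fold, Rgs2, a regulator of G protein signalling. It had 108 in Q84E cells and lay under the floor in wild-type ATP11A cells, at 45.1, and in parental cells, at 43.2. By that probe set it was at least 2.15-fold higher with Q84E than with wild-type ATP11A. Its other compared probe set had 72.6 in Q84E, 12.1 in wild-type ATP11A and 46.7 in parental cells, a bound of 1.44-fold. The rest of its 4 probe sets were under the floor on all arrays. The list's median log2 ratio was 0.01 for Q84E over wild-type ATP11A, 0.26 for wild-type ATP11A over parental and 0.36 for Q84E over parental, against 0.05, 0.01 and 0.07 over all genes. Nr4a1, a nuclear receptor gene that T cell receptor signals induce as well, had 1193 in Q84E, 1183 in wild-type ATP11A and 695 in parental cells, and Junb had 449, 488 and 386. Of the efflux pumps, Abcc4, which exports cyclic nucleotides, had 872 in Q84E, 1056 in wild-type ATP11A and 1918 in parental cells, a log2 ratio of -1.14 for Q84E over parental. That is the order seen for Pde2a and Pde3b. Abcc5 had a log2 ratio of 0.15 for Q84E over wild-type ATP11A by its brightest probe set, but its other compared probe sets ran from -0.52 to 0.63.

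**Figure D4:**
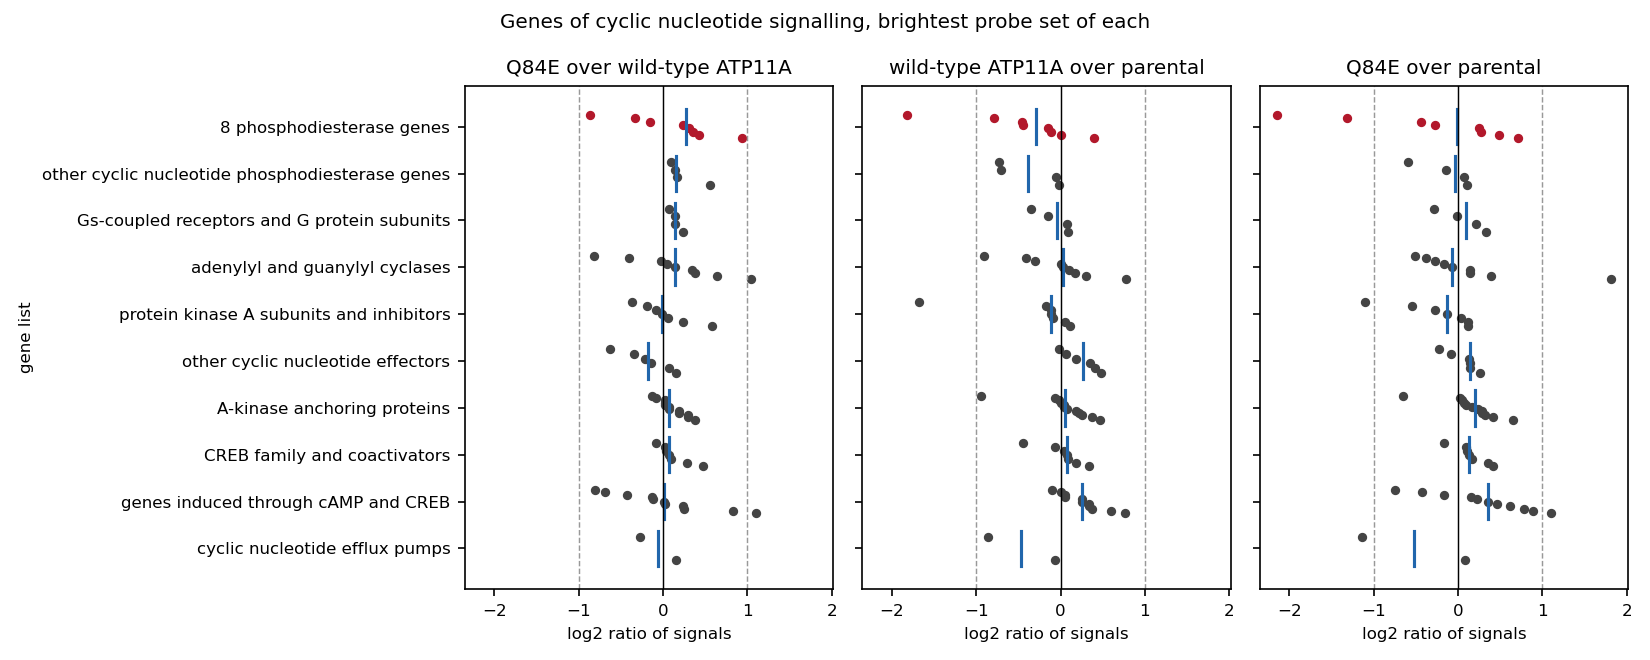
Log2 ratios of the compared genes of each list of cyclic nucleotide signalling in the 3 comparisons, with 1 point per gene by its brightest probe set, blue bars at the median of each list and dashed lines at 2-fold. The 8 phosphodiesterase genes, in red, spread from -2.15 to 0.71 for Q84E over parental, but they were picked with these values known. The A-kinase anchoring and CREB family genes all lie within 2-fold. Of all compared genes, only 2.42% lie past 2-fold for Q84E over parental, so the lists are not to be contrasted.

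The T cell markers also differed between the arrays. Their median log2 ratio over 9 compared genes was 0.36 for Q84E over wild-type ATP11A, -0.42 for wild-type ATP11A over parental and 0.02 for Q84E over parental. Over all 11596 genes the medians were 0.05, 0.01 and 0.07 in the same comparisons. Of the 9 markers, 7 lay above 0 for Q84E over wild-type ATP11A, against 58.1% of all genes. Of the 8 phosphodiesterase genes, 5 lay above 0 in that ratio, while Pde2a, Pde3b and Pde4d lay below. Among the markers, Cd28, a costimulatory receptor gene, had 227 in Q84E, 115 in wild-type ATP11A and 112 in parental cells. It was past 2-fold for Q84E over parental at 1.02, against 0.20 by its other compared probe set. Cd2, an adhesion receptor gene, had 1584 in Q84E, 821 in wild-type ATP11A and 1518 in parental cells. Trat1, an adaptor of the T cell receptor, ran the other way, at 213 in Q84E, 575 in wild-type ATP11A and 1451 in parental cells, the order of Pde2a and Pde3b. Their part in the phosphodiesterase values was not tested.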

How the data were processed

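The authors deposited array intensity on a linear scale, 1 signal per probe set, computed with MAS5 per the submitters' processing notes. Neither a MAS5 version nor a build is given in these sources. Per the labels' protocols, biotinylated cRNA was made with a 3' in vitro transcription kit. On each array the mean without the outer 2% at each end was 500.0, a common scaling that was kept. It is a single factor per array, so a shift of many genes can move all ratios.

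From these signals, log2 ratios were computed for the 34958 probe sets with exactly 1 gene symbol in the platform's annotation. A probe set was compared if it reached the 50th percentile of its array on at least 1 array (21345), and lower signals were set to that floor. The probe set with the highest mean log2 signal stood for a gene (11596 compared). With 1 array per group nothing was tested, and genes were counted at 2-fold. The error is the robust SD of the difference between 2 probe sets of a gene less than 1 log2 unit apart in level, per probe set. The steps were tested on simulated data, with known changes put on bright probe sets only. Noise there was smaller than the probe set error of the members, and ratios at the floor were not covered. Precision is limited by having 3 arrays.

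The members and the gene lists were chosen with earlier results of these data known. The text names all 8 genes. From each pathway list it names those past 2-fold and the 2 with the largest ratio of Q84E over wild-type ATP11A at or above the 75th percentile on the brighter of those 2 arrays. The 3 nearest patterns to Pde2a and Pde3b are named as well. Neighbouring genes and promoter motifs were chosen after the values were seen. Alternatives were other scalings, floors, filters, a pseudocount of 32, more specific probe sets, the mean of all probe sets and 1.5-fold. RefSeq (GRCm38.p6) gave gene order and promoters. Python 3.11.15, pandas 2.3.3 and numpy 2.4.6 were used.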

Additional observations from a re-analysis of the deposited data

How the results depend on the processing

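Of 198 log2 ratios of the 8 genes recomputed under 9 alternatives, 182 moved by no more than the probe set error and 16 by more. The sign turned in 1 of them, that of Pde4b for wild-type ATP11A over parental with the mean of all probe sets. Not all of these values could move, so the count overstates how stable the ratios are. The 2 changes of filter, with 24 and 9 values, leave each ratio as it was. The changes of floor could move only Pde4a and Pde8a. The mean of all probe sets could not move genes with a single one, such as Pde3b. Pde2a ranged from -2.43 to -1.86 for Q84E over parental and from -1.83 to -1.35 for wild-type ATP11A over parental, Pde3b from -1.01 to -0.85 for Q84E over wild-type ATP11A, and Pde7a from 0.28 to 1.04 in the same ratio. Counts of member probe sets past 2-fold were small and moved. For Q84E over wild-type ATP11A, the common median gave 0 higher and 1 lower. For Q84E over parental, quantile normalization, the common median and the pseudocount of 32 gave 1 higher. The filter at the 75th percentile left 11 probe sets, with 3 past 2-fold and 0 higher. Without less specific probe sets, 1 was past 2-fold for wild-type ATP11A over parental, a lower one, since the brightest Pde2a probe set then dropped out. The least specific Pde2a probe set, not past 2-fold there, was left out as well. At 1.5-fold, the counts were 9 for Q84E over wild-type ATP11A (7 higher, 2 lower), 4 for wild-type ATP11A over parental (1 higher) and 9 for Q84E over parental (5 higher). The common median shifts the median log2 ratio of all genes by -0.14 for Q84E over wild-type ATP11A. Why the arrays differed in median signal was not tested. No paired analysis was possible because each group had 1 array. Pde4a and Pde8a lay at the floor, where signal over background limits any ratio.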
